A study of Bos taurus with 6 samples.

Results

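The mitochondrial ribosomal protein genes were compared between fetal fibroblasts of cattle that carry a fat-1 transgene (FT) and of cattle that do not (WT). Members were all genes of the deposited expression table whose symbol is MRPL or MRPS followed by a digit, and there were 77 of them among 17663 genes, 48 of the large subunit (MRPL) and 29 of the small subunit (MRPS). The FT group consisted of 3 fibroblast cultures that carry fat-1, a Caenorhabditis elegans gene for a desaturase that turns n-6 into n-3 polyunsaturated fatty acids, and the WT group of 3 cultures of wild-type Luxi cattle without it. All cultures were primary, made from body tissue of fetuses of 50 to 60 days without head, limbs, organs and bones, and by the study's methods each came from a different fetus (n = 3 per group). The promoter and insertion site of the transgene are not given in the sources used here, and the breed of the FT fetuses is not stated beside that of the WT fetuses, so the transgene and the origin of the animals cannot be told apart. Poly(A) RNA was sequenced in pairs of reads, and the comparison asked which genes differ in FT cells.

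The mitochondrial ribosome translates the few messages of the mitochondrial genome, all of which encode membrane subunits of the respiratory chain and ATP synthase. Its RNAs are transcribed in the organelle, whereas its proteins are encoded in the nucleus, made in the cytosol and imported. The small subunit binds the message and decodes it, and the large subunit joins the amino acids and holds the nascent chain at the inner membrane. Of the 77 members, 76 carried gene ontology text of the table that names mitochondria, and the members lay on 27 of the 29 autosomes in the table, at most 9 of them on 1 chromosome (chromosome 11).

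Total counts were 63366834, 48167642 and 54204446 in FT_1, FT_2 and FT_3 and 69777641, 51310741 and 54271927 in WT_1, WT_2 and WT_3. The median member had between 1047 counts (FT_2) and 2068 counts (WT_1), and no member had fewer than 157 counts in a library, so counting error was small for every member. FT_1 stood apart from the other FT libraries. Over all genes tested, the median absolute log2 difference was 0.39 between FT_1 and FT_2 and 0.40 between FT_1 and FT_3, against 0.12 between FT_2 and FT_3 and 0.13 to 0.17 among the WT libraries. Over the members it was 0.18 and 0.19 for FT_1 against FT_2 and FT_3, 0.09 between FT_2 and FT_3 and 0.07 to 0.12 among the WT libraries.

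Markers of fibroblasts were high in every library, with 10 of 10 genes at a mean of 1 FPKM or more and VIM, an intermediate filament gene of mesenchymal cells, the most abundant. Their summed level was lowest in FT_1, at 6828 FPKM, and reached 17047 and 16783 FPKM in the other FT libraries and 17821, 17272 and 17359.8 FPKM in the WT libraries. Within that sum the genes differed in direction, with PDGFRA called higher in FT and VIM, at 1244, 3850.2 and 4171 FPKM in the FT libraries against 7891, 8178 and 7312 FPKM in the WT libraries, called lower by limma but not by edgeR. Without FT_1, edgeR called VIM lower and COL1A1, PDGFRA, PDGFRB, DCN and LUM higher. Epithelial markers (6 genes, KRT5 the most abundant) summed to 432 FPKM in FT_1 and to at most 13.9 FPKM in each other library, with KRT5, KRT14, KRT8 and KRT18 at 0 in the WT libraries, and EPCAM at 0.57 FPKM in FT_1 and at 0 in the others. Mesothelial markers (4 genes in the table, MSLN the most abundant) summed to 209, 45.0 and 46.3 FPKM in the FT libraries and to 2.32, 3.51 and 3.34 FPKM in the WT libraries, with WT1 at 0 in the FT libraries and at no more than 0.05 FPKM in the WT libraries. Contractile markers of smooth muscle and myofibroblasts (6 genes, ACTA2 the most abundant) summed to 2488, 3758 and 3619.6 FPKM in FT against 1095, 1076 and 1201 FPKM in WT, and 5 of them rose. Adipocyte markers (5 genes, FABP4 the most abundant) summed to 2.96, 14.0 and 15.2 FPKM in FT against 153, 138 and 155 FPKM in WT, and FABP4 and CIDEC fell, while PLIN1 and LPL did not pass the test and ADIPOQ was at 0.28 FPKM or less in every library. Skeletal muscle, endothelial, leukocyte and erythroid markers summed to 8.06 FPKM or less in every library, and neural and glial markers (3 genes in the table, S100B the most abundant) to 7.92 to 17.8 FPKM. The part of these differences in the results below was not tested. In bulk RNA, fewer cells of a type and less RNA per cell cannot be told apart.

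The members fell far more often than they rose. By edgeR's quasi-likelihood test on the counts, 24 of the 48 large subunit genes and 15 of the 29 small subunit genes were lower in FT at an adjusted p under 0.05, against 18.9% of all 13482 genes tested. Higher in FT were 4 large subunit genes and 2 small subunit genes, against 20.1% of all genes. All 77 members passed the filter on low counts, and the other 20 and 12 members did not pass the test. The median log2 fold change (FT over WT) was -0.34 for the large and -0.51 for the small subunit, beside 0.03 for all genes tested, and the difference between the medians of the subunits was 0.16.

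**Figure D1:**
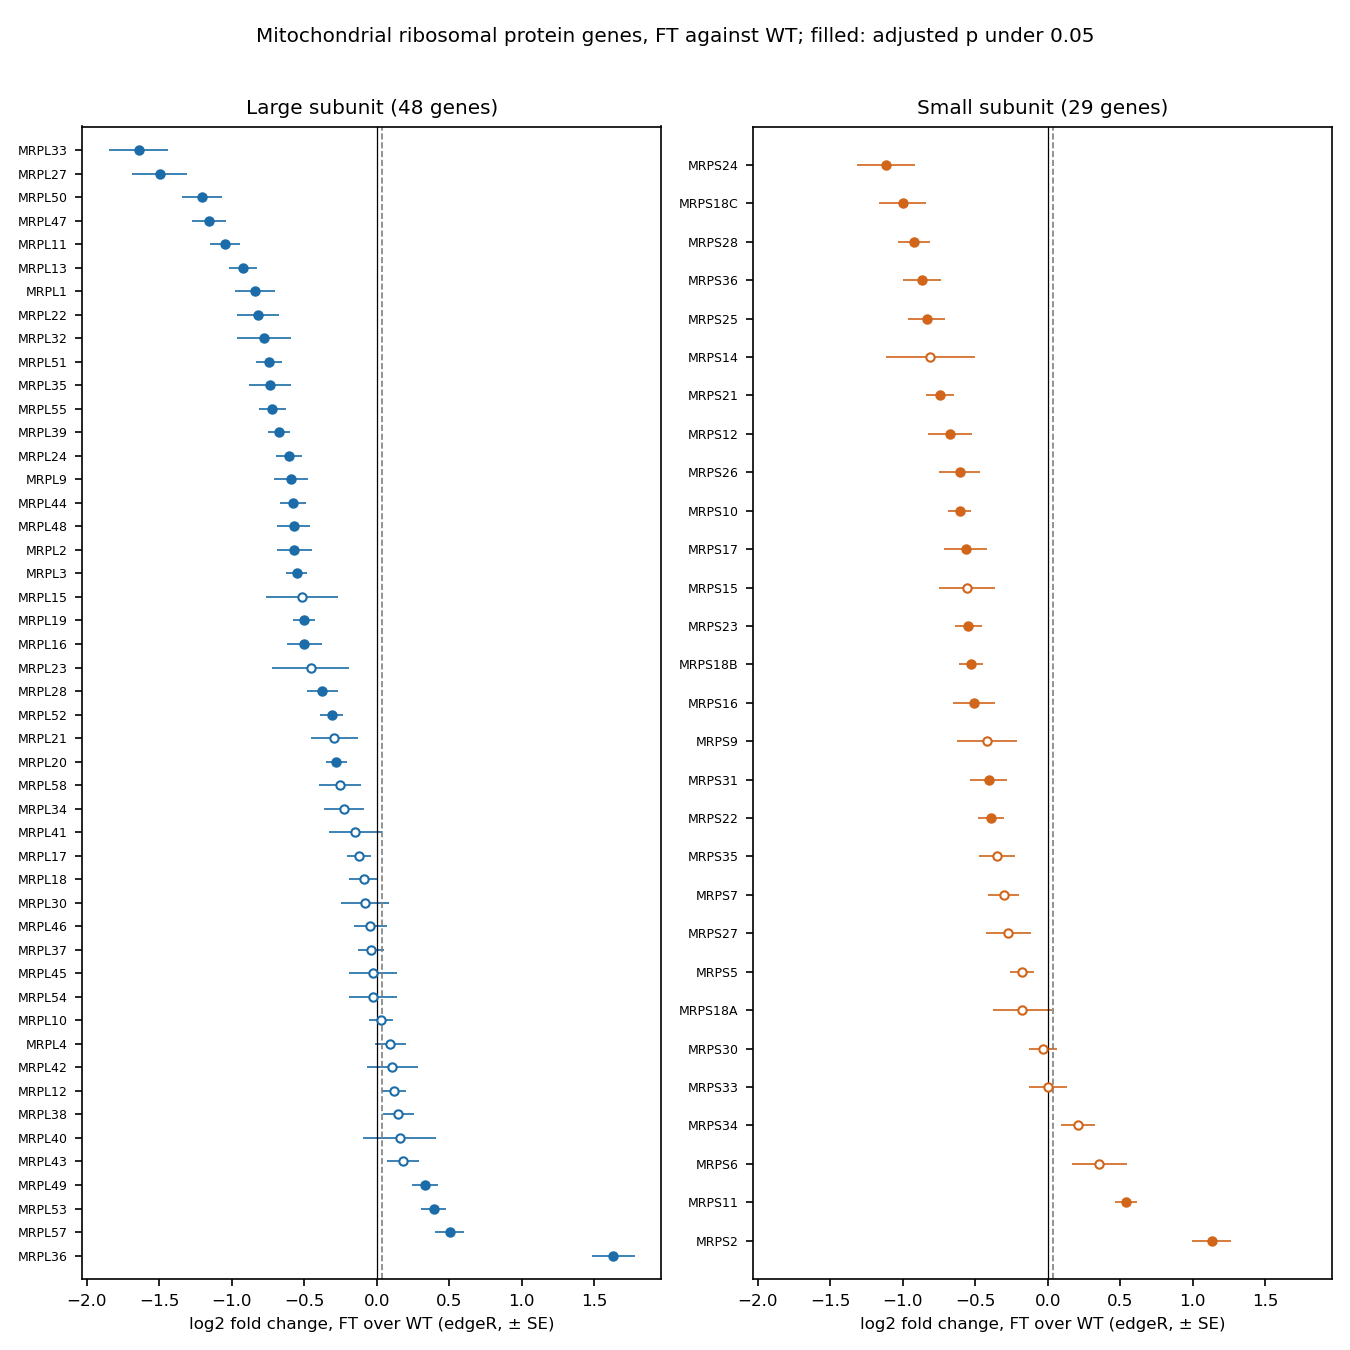
Log2 fold change (FT over WT, edgeR, bars are ± SE) of each large subunit gene (left) and small subunit gene (right), in order; filled points passed an adjusted p under 0.05 and the dashed line is the median of all genes tested, 0.03. In both panels most filled points lie left of 0, with MRPL36 and MRPS2 the farthest to the right.

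The deposited FPKM values gave a similar split. By limma on log2(FPKM + 1), 25 large and 20 small subunit genes were lower, against 29.2% of 12247 genes, and 2 and 2 were higher, against 15.0%. On this scale the median of all genes was -0.12 rather than 0.03, and the split over all genes moved from 2547 lower and 2714 higher to 3573 lower and 1837 higher. With library totals in place of TMM, edgeR's own normalization, the median of all genes was -0.12 as well and the split was 3394 lower and 2049 higher. Relative to the median of all genes, the large subunit was at -0.38 by edgeR and -0.35 by limma, and the small subunit at -0.54 and -0.53. All 39 members that edgeR called lower were also called lower by limma, and 4 of the 6 it called higher were called higher. Counts and FPKM come from the same reads, so this agreement is not independent evidence.

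In the FPKM columns, every FT library was below every WT library for 32 large and 23 small subunit genes (36.9% of all genes tested by edgeR) and above it for 4 and 2 (21.8%). At the threshold of the study's methods, an unadjusted p under 0.05 with a log2 fold change beyond 1, 5 large and 2 small subunit genes were lower (8.96% of all genes) and 1 and 1 were higher (10.2%), and most of the falls were smaller than that. Without FT_1, 29 large and 21 small subunit genes were lower, against 31.5% of all genes, and 4 and 3 were higher, against 30.6%. Without WT_1 or WT_2, 9 small subunit genes were lower in either case, and the large subunit genes called higher numbered 1 without WT_1, 2 without WT_2 and 2 without WT_3. Calls over all genes were fewer in these fits too, at 11.1% lower and 11.0% higher without WT_1, 11.3% and 11.6% without WT_2 and 12.6% and 13.0% without WT_3. Of the 24 large and 15 small subunit genes called lower, 17 and 9 kept the call whichever library was left out.

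**Figure D2:**
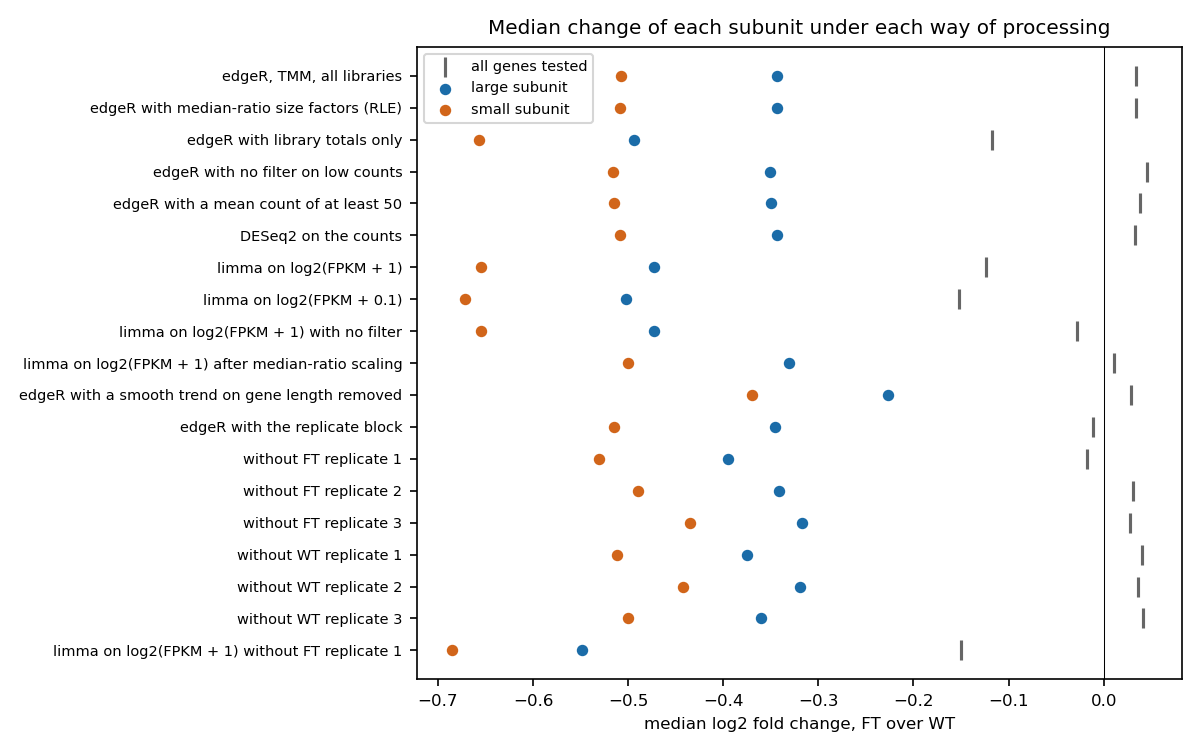
Median log2 fold change (FT over WT) of the large subunit, the small subunit and all genes tested under each way of processing. The small subunit median lies left of the large subunit median, and both left of that of all genes, in every row shown.

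Summed levels were lower in FT for both subunits. Large subunit genes summed to 1001, 932 and 888 FPKM in FT_1, FT_2 and FT_3 and to 1295, 1415 and 1289 FPKM in WT_1, WT_2 and WT_3. Small subunit genes summed to 529, 525 and 497 FPKM in FT and to 730.2, 789 and 719 FPKM in WT. Neither sum overlapped between the groups. The sum of FPKM over all genes was itself lower in FT, at 398330 ± 8460 against 459241 ± 7403 (SD, n = 3), and as a share of that sum the members took 0.366% ± 0.011 in FT and 0.453% ± 0.016 in WT.

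The sums of the subunits kept close to the same ratio. The ratio of large to small summed FPKM was 1.89, 1.78 and 1.79 in FT and 1.77, 1.79 and 1.79 in WT, so the groups overlapped and FT_1 was the highest. The ratio is a description over members and was not tested.

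The largest falls of the large subunit were in MRPL33, MRPL27, MRPL50, MRPL47 and MRPL11. MRPL33 (ENSBTAG00000055077, chromosome 11, 71932410 to 71940793), a small protein related to bacterial L33, was at 10.6, 11.1 and 11.3 FPKM in the FT libraries against 32.7, 50.1 and 32.8 FPKM in the WT libraries (log2 fold change -1.64 ± 0.21 (SE), adjusted p = 0.00253). All 3 FT libraries were close together, and the WT libraries, WT_2 the highest, lay well above them. MRPL27 (ENSBTAG00000021720, chromosome 19, 36304898 to 36309727), whose bacterial relative reaches the site of peptide bond formation, was at 17.5, 28.4 and 24.4 FPKM in the FT libraries against 74.5, 74.0 and 73.3 FPKM in the WT libraries (log2 fold change -1.50 ± 0.19 (SE), adjusted p = 0.00257). FT_1 was the lowest, and without it the log2 fold change was -1.32. MRPL50, a protein that bacteria lack, was at 9.08, 8.55 and 8.57 FPKM in the FT libraries against 21.9, 26.1 and 19.7 FPKM in the WT libraries (log2 fold change -1.21 ± 0.14 (SE), adjusted p = 0.0019). Its groups were apart by more than the spread in either. MRPL47, the relative of bacterial L29 beside the exit of the nascent chain, was at 10.3, 10.8 and 9.23 FPKM in the FT libraries against 25.0, 28.1 and 22.3 FPKM in the WT libraries (log2 fold change -1.16 ± 0.12 (SE), adjusted p = 0.00149). MRPL11, at the base of the stalk that receives translation factors, was at 9.70, 8.66 and 8.51 FPKM in the FT libraries against 18.7, 23.0 and 20.2 FPKM in the WT libraries (log2 fold change -1.05 ± 0.10 (SE), adjusted p = 0.00138). By counts over FPKM, it was the only one of these 5 genes longer than the median gene. Its span on the chromosome was not the longest of the 5.

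Among small subunit genes the largest falls were in MRPS24, MRPS18C, MRPS28, MRPS36 and MRPS25. MRPS24 (ENSBTAG00000007398, chromosome 22, 207311 to 229794), the relative of bacterial S3 where the message enters, was at 9.43, 6.68 and 5.99 FPKM in the FT libraries against 17.8, 19.1 and 16.5 FPKM in the WT libraries (log2 fold change -1.11 ± 0.20 (SE), adjusted p = 0.00773). FT_1 was the highest FT library and still below every WT library. MRPS18C, the relative of bacterial S18, was at 8.61, 11.2 and 10.1 FPKM in the FT libraries against 23.0, 23.9 and 19.9 FPKM in the WT libraries (log2 fold change -1.001 ± 0.16 (SE), adjusted p = 0.00542). MRPS28 was at 9.79, 8.55 and 8.73 FPKM in the FT libraries against 18.3, 20.4 and 18.7 FPKM in the WT libraries (log2 fold change -0.92 ± 0.11 (SE), adjusted p = 0.00225). Both had every FT library below every WT library. MRPS25, a protein that bacteria lack, was at 8.55, 9.06 and 8.66 FPKM in the FT libraries against 15.9, 19.1 and 17.4 FPKM in the WT libraries (log2 fold change -0.84 ± 0.13 (SE), adjusted p = 0.00456). MRPS36, known also as a component of the 2-oxoglutarate dehydrogenase complex rather than of the ribosome, was at 17.9, 22.0 and 20.7 FPKM in the FT libraries against 42.8, 42.5 and 38.3 FPKM in the WT libraries (log2 fold change -0.87 ± 0.13 (SE), adjusted p = 0.00405). Its groups did not overlap.

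**Figure D3:**
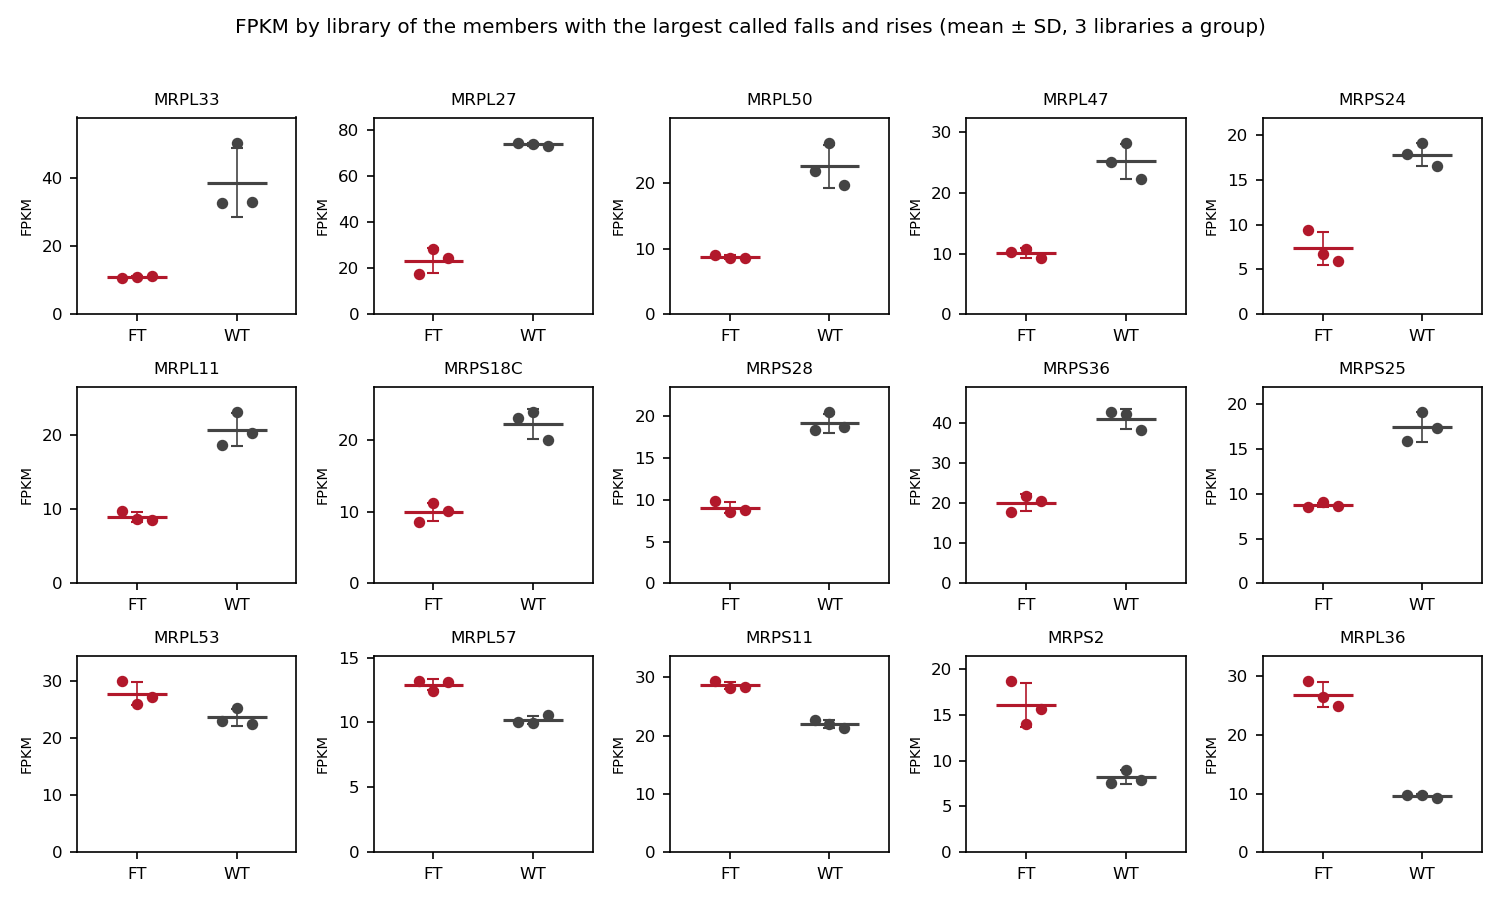
FPKM of the members with the largest called falls and rises in each library (points), with the mean of each group (line) and its SD (bar, n = 3); each vertical axis starts at 0. FT points lie below WT points for the first 10 genes, from MRPL33 to MRPS25, and above them for MRPL53, MRPL57, MRPS11, MRPS2 and MRPL36.

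Of the 6 members that rose, MRPL36 and MRPS2 rose the most. MRPL36 (ENSBTAG00000050317, chromosome 20, 70848636 to 70848938), a small zinc-binding protein of the large subunit core, was at 29.1, 26.4 and 24.9 FPKM in the FT libraries against 9.77, 9.82 and 9.30 FPKM in the WT libraries (log2 fold change 1.63 ± 0.15 (SE), adjusted p = 0.00115). Its gene model spans 303 bases and was the shortest relative to the median gene, at 0.126, and with the trend on gene length removed its log2 fold change was 2.03. MRPS2 (ENSBTAG00000005688, chromosome 11, 105822041 to 105825257), a protein of the small subunit body, was at 18.6, 13.9 and 15.6 FPKM in the FT libraries against 7.57, 9.02 and 7.93 FPKM in the WT libraries (log2 fold change 1.13 ± 0.13 (SE), adjusted p = 0.00216). FT_1 was the highest, and without it the log2 fold change was 1.02. MRPS11, on the platform near the decoding site, was at 29.3, 28.2 and 28.4 FPKM in the FT libraries against 22.6, 21.9 and 21.3 FPKM in the WT libraries (log2 fold change 0.54 ± 0.08 (SE), adjusted p = 0.0034). MRPL57 was at 13.2, 12.4 and 13.1 FPKM in the FT libraries against 10.0, 9.99 and 10.5 FPKM in the WT libraries (log2 fold change 0.50 ± 0.10 (SE), adjusted p = 0.0122). These groups did not overlap, but the call of MRPL57 was lost without WT_1 or WT_2. MRPL53 was at 29.9, 26.0 and 27.2 FPKM in the FT libraries against 23.0, 25.2 and 22.5 FPKM in the WT libraries (log2 fold change 0.39 ± 0.08 (SE), adjusted p = 0.0141), and the call was lost without WT_1 or WT_3 and by limma on FPKM (adjusted p = 0.0769). MRPL49, chosen after its values were seen as the remaining gene called higher, was at 42.8, 37.7 and 38.0 FPKM in the FT libraries against 32.0, 36.5 and 36.4 FPKM in the WT libraries (log2 fold change 0.33 ± 0.09 (SE), adjusted p = 0.0294), and the call was lost by limma (adjusted p = 0.174) and when any 1 library other than FT_1 was left out.

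In the stalk of the large subunit, which recruits the factors that drive elongation, 1 of 5 genes fell, 1 rose and the median log2 fold change was 0.03, shares near the 18.9% and 20.1% of all genes. MRPL11 fell and MRPL53 rose, as given above. MRPL12, the flexible stalk protein itself, was at 26.6, 25.5 and 25.5 FPKM in the FT libraries against 26.4, 28.7 and 24.7 FPKM in the WT libraries (log2 fold change 0.12, adjusted p = 0.303), and with the trend on gene length removed it was called higher (log2 fold change 0.28, adjusted p = 0.0333). MRPL10, its anchor, was at 15.9, 14.5 and 13.3 FPKM in the FT libraries against 16.0, 16.4 and 15.4 FPKM in the WT libraries (log2 fold change 0.03, adjusted p = 0.798). MRPL54 was at 12.8, 19.0 and 17.9 FPKM in the FT libraries against 18.6, 19.5 and 18.4 FPKM in the WT libraries, with FT_1 apart from all other libraries (log2 fold change -0.02, adjusted p = 0.92). The values of these 3 genes overlapped between the groups. On the limma scale the median of the stalk genes was -0.12, the same as that of all genes.

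In the central protuberance, the top of the large subunit that faces the small one, 3 of 7 genes fell, none rose by edgeR (0 also at an unadjusted p under 0.05) or limma, and the median was -0.09, beside 18.9% lower and 20.1% higher of all genes. With the trend on gene length removed, 2 fell and the median was 0.07. The median was -0.16 by edgeR without FT_1 and -0.25 by limma, where those of all genes were -0.02 and -0.12. MRPL27 led. MRPL48 was at 8.99, 7.75 and 7.21 FPKM in the FT libraries against 13.0, 14.0 and 12.8 FPKM in the WT libraries (log2 fold change -0.57, adjusted p = 0.011), and its call was lost without WT_2. MRPL52 was at 28.2, 29.4 and 30.3 FPKM in the FT libraries against 39.9, 42.2 and 39.7 FPKM in the WT libraries (log2 fold change -0.31, adjusted p = 0.0251), and this call was lost with the trend on gene length removed and without FT_2, WT_1, WT_2 or WT_3. MRPL18, MRPL38, MRPL40 and MRPL46 did not pass the test. MRPL18 was at 47.8, 43.6 and 37.7 FPKM in the FT libraries against 50.5, 53.7 and 49.2 FPKM in the WT libraries (log2 fold change -0.09, adjusted p = 0.496). MRPL38 was at 21.4, 17.0 and 18.3 FPKM in the FT libraries against 18.1, 20.1 and 19.0 FPKM in the WT libraries (log2 fold change 0.15, adjusted p = 0.302). The groups did not overlap for MRPL18 and overlapped for MRPL38. MRPL40 was at 27.5, 18.1 and 13.6 FPKM in the FT libraries against 19.6, 21.2 and 18.3 FPKM in the WT libraries (log2 fold change 0.16, adjusted p = 0.654), widely spread in FT. Its log2 fold change was -0.14 without FT_1, so the sign rested on that library. MRPL46 was at 9.31, 9.88 and 8.82 FPKM in the FT libraries against 10.1, 11.8 and 10.3 FPKM in the WT libraries (log2 fold change -0.04, adjusted p = 0.781).

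Around the tunnel exit, where the nascent chain meets the inner membrane, 5 of 8 genes fell, none rose by edgeR (0 also at an unadjusted p under 0.05) or limma, and the median was -0.59. Without FT_1, 7 of the 8 fell, while the share of all genes called lower went from 18.9% to 31.5%. MRPL47 fell most. MRPL22, which lines the tunnel, was at 15.9, 13.6 and 13.9 FPKM in the FT libraries against 30.2, 31.7 and 23.5 FPKM in the WT libraries (log2 fold change -0.82, adjusted p = 0.00745). MRPL39 was at 8.45, 8.25 and 7.98 FPKM in the FT libraries against 14.0, 15.2 and 14.9 FPKM in the WT libraries (log2 fold change -0.68, adjusted p = 0.00207). MRPL24 was at 22.8, 22.2 and 19.5 FPKM in the FT libraries against 34.9, 37.3 and 37.2 FPKM in the WT libraries (log2 fold change -0.61, adjusted p = 0.00383). These genes had every FT library below every WT library. MRPL44 was at 18.3, 15.4 and 16.1 FPKM in the FT libraries against 27.4, 28.6 and 27.0 FPKM in the WT libraries (log2 fold change -0.58, adjusted p = 0.00438). MRPL45, which touches the membrane, was at 46.8, 30.9 and 31.1 FPKM in the FT libraries against 40.6, 42.0 and 40.8 FPKM in the WT libraries (log2 fold change -0.03, adjusted p = 0.914), and FT_1 exceeded the WT libraries while FT_2 and FT_3 were below them; without FT_1 its log2 fold change was -0.24 (adjusted p = 0.0126). MRPL23 was just under the lowest WT library in FT_1, at 3.47, 1.89 and 1.93 FPKM in the FT libraries against 3.48, 4.05 and 3.62 FPKM in the WT libraries (log2 fold change -0.46, adjusted p = 0.217), and its log2 fold change was -0.78 without FT_1 (adjusted p = 0.000784). MRPL17 was the most abundant member and is described with the levels.

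Of the 3 members of the S18 family, MRPS18B and MRPS18C fell and MRPS18A did not pass the test. The values of MRPS18C are given above. MRPS18B was at 20.1, 19.1 and 18.6 FPKM in the FT libraries against 29.6, 33.6 and 30.0 FPKM in the WT libraries (log2 fold change -0.53, adjusted p = 0.00492). MRPS18A, which structures place in the large subunit, was at 18.9, 26.3 and 31.9 FPKM in the FT libraries against 32.2, 34.0 and 31.2 FPKM in the WT libraries (log2 fold change -0.17, adjusted p = 0.53), its FT libraries wide apart and FT_1 the lowest. MRPS30, also placed in the large subunit, was at 13.0, 12.1 and 12.7 FPKM in the FT libraries against 14.2, 15.8 and 13.1 FPKM in the WT libraries (log2 fold change -0.03, adjusted p = 0.819). Counting both as large and leaving out MRPS36 changed the difference between the medians from 0.16 to 0.22. MRPS12, the decoding site protein whose bacterial relative sets accuracy, was at 16.8, 16.8 and 11.9 FPKM in the FT libraries against 26.2, 27.0 and 27.5 FPKM in the WT libraries (log2 fold change -0.67, adjusted p = 0.0168), and its call was lost with the length trend removed and without WT_1, WT_2 or WT_3.

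Levels among members spanned from 3.07 FPKM (mean of all libraries, MRPL23) to 74.3 FPKM (MRPL17) in the large subunit, with a median of 19.3 FPKM, and from 10.0 (MRPS9) to 58.9 (MRPS33) in the small, with a median of 17.3. MRPL17 was at 62.3, 71.5 and 67.2 FPKM in the FT libraries against 80.0, 83.2 and 81.7 FPKM in the WT libraries (log2 fold change -0.13, adjusted p = 0.275), and by limma its adjusted p was 0.0276. A gene of the table without a symbol, described there as resembling MRPL17 and chosen after the values were seen, was at 0.71, 6.58 and 5.26 FPKM in the FT libraries against 7.44, 7.08 and 6.41 FPKM in the WT libraries, so reads could be split between them and the values of MRPL17 are uncertain. MRPL3 was at 42.8, 39.7 and 38.6 FPKM in the FT libraries against 66.1, 68.8 and 63.5 FPKM in the WT libraries (log2 fold change -0.55, adjusted p = 0.00272). MRPS33 was at 66.9, 50.9 and 49.4 FPKM in the FT libraries against 58.0, 61.9 and 66.2 FPKM in the WT libraries (log2 fold change 0.00, adjusted p = 0.987), its groups overlapping. MRPS14 was at 18.6, 43.0 and 34.0 FPKM in the FT libraries against 60.0, 69.6 and 58.1 FPKM in the WT libraries (log2 fold change -0.81, adjusted p = 0.0823), the lowest in FT_1, and its log2 fold change was -0.53 without FT_1 (adjusted p = 0.00341) and -1.08 without FT_2, past the threshold in both cases. MRPS16 was at 33.5, 31.5 and 24.3 FPKM in the FT libraries against 42.2, 51.6 and 47.7 FPKM in the WT libraries (log2 fold change -0.51, adjusted p = 0.0355), and its call was lost without FT_2, FT_3, WT_1, WT_2 or WT_3 and with the length trend removed (log2 fold change -0.23). MRPS9 was at 10.9, 6.59 and 6.71 FPKM in the FT libraries against 12.4, 12.7 and 10.9 FPKM in the WT libraries (log2 fold change -0.42, adjusted p = 0.161), with FT_1 near WT, and its log2 fold change was -0.68 without FT_1 (adjusted p = 0.000319).

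Near the threshold, MRPL28 lay just inside, at 17.2, 14.9 and 13.6 FPKM in the FT libraries against 20.8, 22.9 and 22.4 FPKM in the WT libraries (log2 fold change -0.38, adjusted p = 0.0363), and MRPL15 outside, at 9.54, 5.40 and 5.15 FPKM in the FT libraries against 10.8, 11.7 and 9.47 FPKM in the WT libraries (log2 fold change -0.52, adjusted p = 0.15). MRPL15 was high in FT_1, and its log2 fold change was -0.85 without FT_1 (adjusted p = 0.000123). MRPS31 lay just inside, at 10.6, 9.92 and 11.0 FPKM in the FT libraries against 15.3, 17.8 and 13.6 FPKM in the WT libraries (log2 fold change -0.41, adjusted p = 0.046). MRPS7 lay just outside, at 14.2, 11.6 and 12 FPKM in the FT libraries against 16.3, 18.7 and 17.1 FPKM in the WT libraries (log2 fold change -0.30, adjusted p = 0.0622). The call of MRPL28 was lost when any 1 library other than FT_1 was left out, and that of MRPS31 without FT_2, FT_3, WT_1 or WT_2. With the length trend removed both calls were lost, at log2 fold changes of -0.20 and -0.27. The log2 fold change of MRPS7 was -0.39 without FT_1 (adjusted p = 0.0047). In FPKM, FT_1 exceeded the mean of FT_2 and FT_3 in 57 of the 77 members, with a median log2 difference of 0.15. No such count is given here for all genes. The FPKM sum over all genes was also higher in FT_1, at 407533 against 396565 in FT_2 and 390892 in FT_3.

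Proteins listed as taking the place of a bacterial protein and all others were set side by side, with MRPS18C in the first list and MRPS18A and MRPS18B in the second. MRPS28, MRPS30 and MRPS36 were also counted in the second, so the small subunit counts hold for this assignment only. Of 29 large subunit genes in the first list, 18 fell and 1 rose (median -0.52), and of 19 others, 6 fell and 3 rose (median -0.04). In the small subunit, 7 of 15 in the first list fell and 2 rose (median -0.56), and 8 of 14 others fell and none rose by edgeR (0 also at an unadjusted p under 0.05) or limma (median -0.40). Without FT_1, 21 and 8 of the large and 11 and 10 of the small subunit genes fell (31.5% of all genes). By limma with all libraries, 19 and 6 of the large and 11 and 9 of the small fell (29.2% of all genes). Without FT_1 the medians were -0.62, -0.10, -0.56 and -0.42, and with the length trend removed -0.40, 0.07, -0.40 and -0.33, so the sign of the median of the other large subunit genes changed when length was taken out. With the length trend removed, 14 and 5 of the large and 4 and 6 of the small subunit genes fell. Of all genes, 18.9% fell and 20.1% rose. The differences between these lists were not tested.

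Members were short by the length to which FPKM is scaled, which is not the span on the chromosome. Relative to the median gene, by counts over FPKM, the median member was at 0.508, and 71 of 77 were shorter than the median gene. Across the 77 members, Spearman's rho of log2 fold change with relative length was 0.26, and across 12672 genes with a relative length it was 0.18. These genes share their libraries, so the correlations are descriptions. With a smooth trend on length removed in each library, 19 large and 10 small subunit genes were lower and 6 and 2 higher, against 19.0% and 19.5% of all genes, and the medians were -0.23 and -0.37, and 29 of the 39 members that fell kept their call. All 6 members that rose kept theirs, and MRPL12 and MRPL43 gained a call as higher. The part of length in the falls was not tested beyond this.

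**Figure D4:**
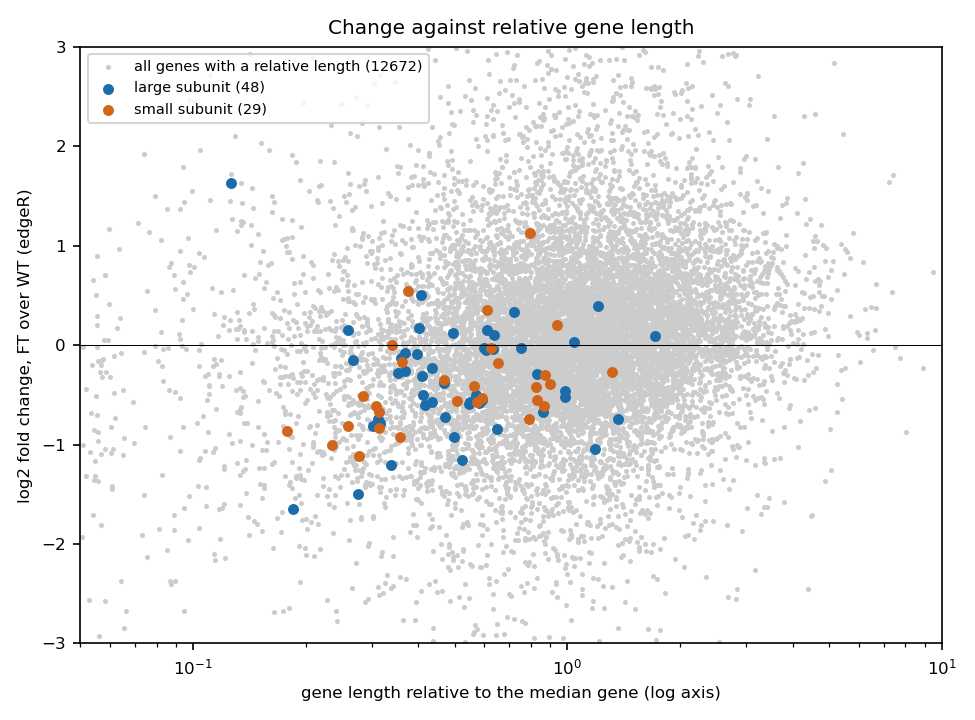
Log2 fold change (FT over WT, edgeR) against gene length relative to the median gene (log axis) for all genes with a relative length (grey) and for large and small subunit genes; points beyond the axes are not drawn. Members lie mostly left of 1 and below 0, and MRPL36 is the short gene far above 0.

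Some members start beside another gene that runs the other way. Within 1000 bp of the start of 20 members, 19 such pairs lay, 1 of them of 2 members (MRPL46 and MRPS11) and 1 with a partner that was not tested. Of the 18 tested pairs, 10 moved in the same direction by their estimates and 8 in opposite directions, and where both genes passed the test, 3 pairs moved together and 4 apart. These pairs were sought, and named below, after the values were seen. No such counts are given here for pairs among all genes, so these are descriptions only. MRPL32 fell with its partner PSMA2, a proteasome subunit (log2 fold changes -0.78 and -0.85), though the call of MRPL32 was lost without WT_2 or WT_3 and with the length trend removed. MRPL27 (-1.50) fell with EME1 (-0.79), and MRPL47 (-1.16) with the complex I subunit NDUFB5 (-0.53). MRPS12 fell by 0.67 and its partner SARS2, the mitochondrial seryl-tRNA synthetase, rose by 0.44, a call that limma did not make. MRPS18B (-0.53) and PPP1R10 (0.45) also moved apart. MRPL57 rose by 0.50 and SKA3, a kinetochore gene, fell by 1.41, while MRPL49 rose by 0.33 and FAU, a cytosolic ribosomal protein gene, fell by 0.70. MRPL46 (-0.04) and MRPS11 (0.54) overlap at their starts.

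Gene models of 21 members overlap another gene. The strand of counting is not given in the sources used here, and some overlaps, such as MRPS18B with ATAT1, are on the same strand. Reads of the overlap therefore cannot be told apart, and the values of these members are uncertain to that extent. Among those named above they include MRPL27 (with XYLT2), MRPL47 (with NDUFB5), MRPL49 (with SYVN1), MRPL46 and MRPS11 (with each other), MRPS18B (with ATAT1) and MRPS7 (with GGA3 and MIF4GD).

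Other proteins of mitochondrial translation were counted for comparison, beside 18.9% lower and 20.1% higher of all genes, or 31.5% and 30.6% without FT_1. A list of mitoribosomal proteins under other symbols held 7 genes. It included MRPL58, which is also counted among the members above and did not pass the test. Of the 7, 4 fell and 1 rose (median -0.39): NDUFAB1 (log2 fold change -0.79, adjusted p = 0.00651), CHCHD1, DAP3 and AURKAIP1 fell, and GADD45GIP1 (log2 fold change 0.77, adjusted p = 0.0283) rose. Without FT_1, 6 of the 7 fell, and with the length trend removed 2 did (median -0.17). Of 12 translation factors, 7 fell and none rose by edgeR (0 also at an unadjusted p under 0.05) or limma (median -0.41), and with the length trend removed 4 fell. TSFM, which recharges the elongation factor TUFM, was at 11.5, 11.6 and 10.8 FPKM in the FT libraries against 27.7, 30.1 and 28.4 FPKM in the WT libraries (log2 fold change -1.18 ± 0.08 (SE), adjusted p = 0.000638). GFM1, the translocase, was at 11.6, 11.7 and 11.4 FPKM in the FT libraries against 25.3, 27.1 and 24.1 FPKM in the WT libraries (log2 fold change -0.98 ± 0.07 (SE), adjusted p = 0.000797). Neither gene overlapped between the groups. Of 26 genes of assembly and rRNA modification, 5 fell and none rose by edgeR or limma (DHX30 was higher at an unadjusted p of 0.0236; median -0.24), led by the assembly GTPase GTPBP10 (log2 fold change -1.03, adjusted p = 0.0019) and RCC1L (log2 fold change -0.81, adjusted p = 0.00163). By edgeR this share, 19.2%, was near the 18.9% of all genes, and without FT_1 12 of the list fell and 3 rose. By limma with all libraries 11 of the list fell (42.3%, against 29.2% of all genes).

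Of all genes, 18.9% fell and 20.1% rose, or 19.0% and 19.5% with the length trend removed, and the shares of genes of mitochondrial DNA transcription and replication that rose, or that fell with the trend removed, were near these. Of 14 genes of RNA stability and translational activation, 6 fell and 2 rose (median -0.31), among the falls PNPT1 (log2 fold change -1.03, adjusted p = 0.000887), which degrades mitochondrial RNA, and LRPPRC (log2 fold change -0.82, adjusted p = 0.00125), which stabilises it, and among the rises ELAC2 (log2 fold change 0.47, adjusted p = 0.0152) and FASTK (log2 fold change 0.46, adjusted p = 0.00548), the first of which limma did not call. Of 20 aminoacyl-tRNA synthetase genes and their partners, 7 fell and 2 rose (median -0.16). Among the falls, IARS2, which charges the isoleucine tRNA, was at 32.3, 43.1 and 42.3 FPKM in the FT libraries against 106, 107 and 103 FPKM in the WT libraries (log2 fold change -1.27, adjusted p = 0.00169). Of 11 genes of mitochondrial DNA transcription and replication, 4 fell and 2 rose (median -0.09), or 2 and 1 with the length trend removed. MGME1 (log2 fold change -1.11, adjusted p = 0.00218) fell most, and the RNA polymerase POLRMT rose, at 5.89, 4.12 and 4.19 FPKM in the FT libraries against 2.98, 2.13 and 2.43 FPKM in the WT libraries (log2 fold change 1.07, adjusted p = 0.00825).

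**Figure D5:**
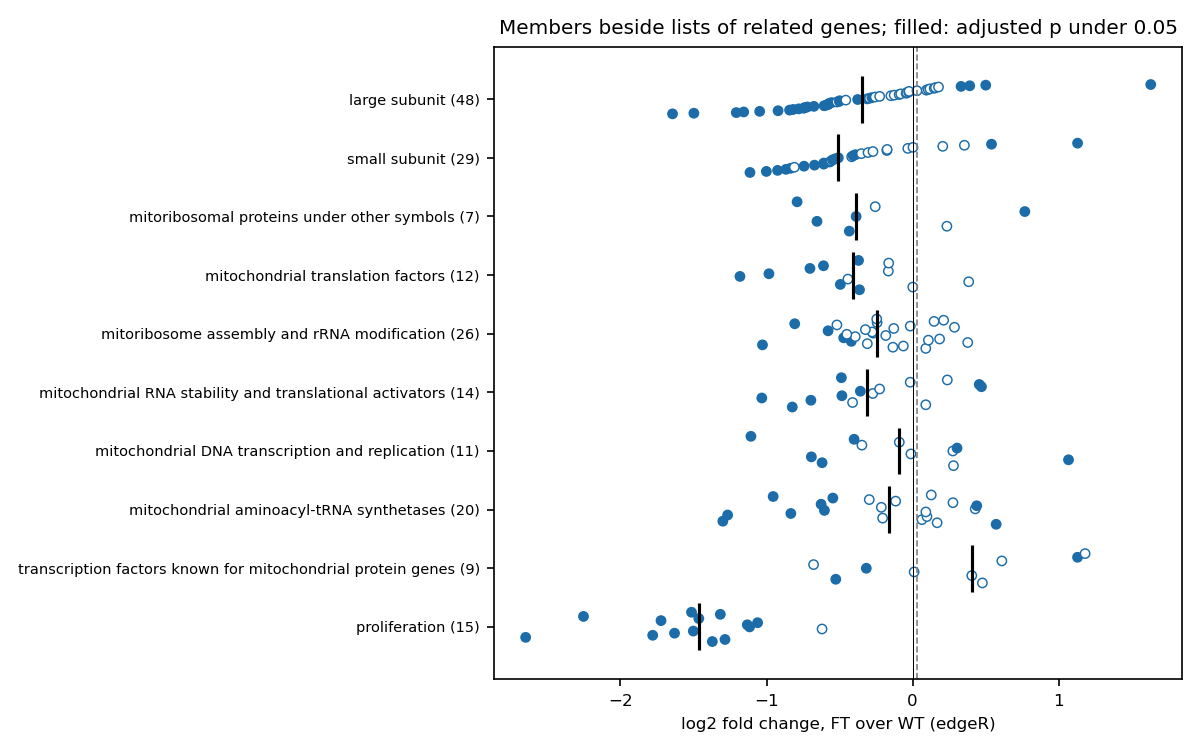
Log2 fold change (FT over WT, edgeR) of the members and of lists of related genes, 1 point per gene, filled where the adjusted p was under 0.05, with the median of each list (black bar) and of all genes tested (dashed line, 0.03). The proliferation list lies farthest left, with a median of -1.46, and the list of transcription factors right of 0, with a median of 0.41.

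Among 9 transcription factors and coactivators known for genes of mitochondrial proteins, 2 fell (22.2%, against 18.9% of all genes), 1 rose (11.1%, against 20.1%) and the median was 0.41. GABPA, a factor of the ETS family, was at 15.0, 14.6 and 15.2 FPKM in the FT libraries against 25.0, 24.2 and 22.7 FPKM in the WT libraries (log2 fold change -0.53 ± 0.07 (SE), adjusted p = 0.00361), and ESRRA fell too (log2 fold change -0.32, adjusted p = 0.0349). PPRC1, a coactivator, was at 17.3, 12.9 and 13.7 FPKM in the FT libraries against 7.32, 7.52 and 7.55 FPKM in the WT libraries (log2 fold change 1.13 ± 0.12 (SE), adjusted p = 0.00153). MYC was at 95.5, 16.1 and 16.3 FPKM in the FT libraries against 19.4, 23.9 and 18.9 FPKM in the WT libraries, high in FT_1 alone, and did not pass the test (log2 fold change 1.18, adjusted p = 0.243). Without FT_1 the median of this list was 0.03, so its distance from 0 rests on that library.

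Proliferation genes had a lower median than the members. Of 15, 14 fell (median -1.46), and 15 fell without FT_1 (median -1.32). CCNB1, which drives entry into mitosis, was at 8.20, 13.8 and 12.1 FPKM in the FT libraries against 74.0, 91.7 and 73.7 FPKM in the WT libraries (log2 fold change -2.65 ± 0.23 (SE), adjusted p = 0.00102), and BIRC5 was next (log2 fold change -2.25, adjusted p = 0.00218). Summed over the 15 genes, of which RRM2 was the most abundant, the level was 137, 216 and 208 FPKM in the FT libraries and 578, 695 and 565 FPKM in the WT libraries. Both these genes and the members had lower sums in FT than in WT. Among the FT libraries, FT_1, which stands apart as described above, had the lowest sum of these genes and the highest sum of the members, at 1529.8 FPKM against 1457 and 1385 FPKM. Their part in the falls was not tested. Of 75 cytosolic ribosomal protein genes tested, a list chosen after earlier results were known, 29 fell and 2 rose (median -0.37), and without FT_1 59 fell and 5 rose among 76 (median -0.58), where calls over all genes went from 18.9% to 31.5% lower. With the length trend removed, 19 fell and 6 rose (median -0.15). The difference between the cytosolic and the mitochondrial list was not tested.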

How the data were processed

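Poly(A) RNA of 6 cultures (3 FT, 3 WT) was measured by the authors with paired-end RNA-seq. The deposited table gives for each gene a raw read count and an FPKM value per library, the latter made by the authors as fragments scaled by gene length and library size. The submitters' processing notes list HISAT2 2.0, StringTie 1.3.0 and Bowtie 0.12.2, and a mouse build, although the gene IDs are those of cattle; the build of the coordinates is not named in the sources used here, so they are printed as the table gives them. Counts of all genes were fitted with edgeR 4.0.16 (R 4.3.3; TMM, filterByExpr with a minimum count of 10, glmQLFit, glmQLFTest, Benjamini-Hochberg over all genes tested), called at an adjusted p under 0.05. The SE is the log2 fold change over the square root of its F value. FPKM values with a mean of at least 0.5 were fitted with limma 3.58.1 as log2(FPKM + 1) with a trend and no rescaling; DESeq2 1.42.0 was an alternative. Alternatives were other normalizations, filters, pseudocounts, a length trend, the threshold of the study's methods, other member lists and leaving out each library; limma without FT_1 was added after the data were seen. The fits were tested on simulated data with the same spread for every gene and no library apart from the rest, so that test does not cover the difference of FT_1. Relative gene length is the count over the FPKM, scaled to the median gene (FPKM of at least 0.5). It is not the span of the gene on the chromosome. Members and lists were chosen with earlier results of these data known, so no list was tested. Named are, in each subunit, the 5 called members with the largest fall and up to 3 called members with the largest rise. The small subunit had only 2 called rises. Also named are the 3 most and the 1 least abundant of each subunit, and the stalk, central protuberance and tunnel exit genes. The rest are 6 genes chosen for their role and the members nearest the threshold on either side. Tables and figures were made with Python 3.11.15, pandas 2.3.3, numpy 2.4.6, scipy 1.17.1 and matplotlib 3.10.9. Library totals ran from 48167642 to 69777641 counts. MRPL14 and promoter motifs were not analysed here.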

Additional observations from a re-analysis of the deposited data

How the results depend on the processing

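The medians of both subunits stayed negative, and below that of all genes tested, under every alternative run. With library totals in place of TMM, 2 large subunit genes were higher and the medians were -0.49 and -0.66. With limma on log2(FPKM + 1) these were 2, -0.47 and -0.66, with a pseudocount of 0.1 they were 2, -0.50 and -0.67, and with no filter 2, -0.47 and -0.66. These settings moved the median of all genes too, and the share of all genes called higher was 15.2%, 15.0%, 15.4% and 9.88% in that order. With the length trend removed the small subunit median was -0.37. At the threshold of the study's methods, 5 large and 2 small subunit genes were lower, near the 8.96% of all genes. There, 1 and 1 were higher, against 10.2% of all genes. Adding DAP3, PTCD3, CHCHD1 and AURKAIP1 to the small and GADD45GIP1 to the large subunit, without NDUFAB1, gave a difference between the medians of 0.12, and MRPS30 and MRPS18A counted as large, without MRPS36, one of 0.22.

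Leaving out each library in turn gave 17 to 29 large and 9 to 21 small subunit genes lower, 1 to 4 and 2 to 3 higher, medians of -0.40 to -0.32 and -0.53 to -0.44, and a difference of 0.12 to 0.15, while 11.1% to 31.5% of all genes were lower and 11.0% to 30.6% higher. Limma without FT_1, added after the data were seen, gave 35 and 23 lower (42.5% of all genes), 2 and 3 higher (24.3%), medians of -0.55 and -0.69, and a difference of 0.14; there MRPS33 was called lower, at -0.30, while edgeR put it at -0.13 without FT_1 and at 0.00 with all libraries, uncalled in both. The cause was not tested.

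Replicate numbers did not pair the libraries: deviations of same-numbered libraries correlated at -0.02 to 0.02. With the replicate block, 20 large and 9 small subunit genes were lower (12.9% of all genes) and 1 and 2 higher (13.6%). Over 44 named genes and 836 values, 745 kept their side of the threshold, 45 of them uncalled values whose sign changed, 62 lost the call, 28 gained one, and 1, that of MRPS33 given above, gained one with the other sign. Depth limits no member; 3 libraries per group limit the precision, and the p-values measure the spread among these cultures.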
